A study of Mus musculus with 12 samples.

Results

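The Hox cluster genes code for homeodomain transcription factors that give cells their position along the body axis. They were taken as the array probes whose RefSeq accession maps to a mouse symbol of the form Hoxa, Hoxb, Hoxc or Hoxd followed by a paralog number. This gave 39 genes, measured by 43 probes, among 20660 genes with a RefSeq symbol on the array. Hoxa9, Hoxa13 and Hoxb3 were among the genes with a second probe, and each gene was followed through its brightest probe by the mean of all arrays. The 39 genes comprise 11 of the Hoxa cluster on chromosome 6, 10 of Hoxb on chromosome 11, 9 of Hoxc on chromosome 15 and 9 of Hoxd on chromosome 2.

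Within each cluster the genes lie in the order of their paralog numbers. Low numbers are used towards the head and high numbers towards the tail, limbs and genital tract. Along the Müllerian duct, which forms the oviduct, uterus and upper vagina, genes of paralog groups 9, 10, 11 and 13 mark successive segments, with Hoxa9 in the future oviduct. HOX proteins bind DNA together with cofactors of the TALE class (PBX, MEIS and PKNOX). Polycomb complexes keep unused Hox genes silent and trithorax complexes keep active ones on.

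The cells were DKO172, a single mouse line from a female, which the labels trace to a fallopian tumor. They carried plasmids coding for DICER1 with the D1709N change, DICER1 with the G1809R change, DICER1 WT or, as control, GFP. Both changes lie in the RNase IIIb domain of DICER1, the domain that cuts the precursor on the side of the 5p strand. DICER1 is the enzyme that cuts miRNA precursors. The labels do not give the line's own Dicer1 genotype or what drives the plasmid's insert. Every group had 3 single-colour arrays. Cells were plated at 200000 per well and given 2 µg of plasmid. They were replated after 24 h, then selected for 84 h (hygromycin, 300 µg/ml), and RNA was taken at 108 h. Nothing in the labels says whether replicates were separate cultures, so the p-values speak of these samples and their spread may be technical.

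The Hox clusters also hold miRNA genes of the miR-196 and miR-10 families, both of which act through 5p strands and are known to repress Hox transcripts. Their mature sequences are shown because they link DICER1 and the clusters. They are RefSeq sequences on GRCm38.p6, written 5′ to 3′ with the seed (bases 2 to 8) in capitals.
miR-196a-5p: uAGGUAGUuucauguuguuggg
miR-196b-5p: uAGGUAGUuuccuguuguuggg
miR-10a-5p: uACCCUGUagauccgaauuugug
miR-10b-5p: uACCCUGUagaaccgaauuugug
The sequence of miR-196a-5p is coded in the Hoxb cluster at chr11:96265187-96265208 (plus strand) and in the Hoxc cluster at chr15:102973365-102973386 (plus strand). That of miR-196b-5p lies in the Hoxa cluster at chr6:52230129-52230150 (minus strand). miR-10a-5p lies in the Hoxb cluster at chr11:96317186-96317208 (plus strand), and miR-10b-5p in the Hoxd cluster at chr2:74726074-74726096 (plus strand). Each family shares 1 seed, and its 2 members differ outside the seed by A12C for miR-196a against miR-196b and by U12A for miR-10a against miR-10b, counted from the 5′ end. The levels of these miRNAs were not analysed here.

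All levels are log2 processed signals relative to the array's 75th percentile. A level can be compared between arrays for 1 probe, but not between probes. Across the series, the arrays of a group correlated at 0.977 to 0.993 over all genes tested. Replicate 1 of every group was on one slide and replicates 2 and 3 on the other. WT replicate 1 stood apart: 82.7% of its probes were well above background, a flag set by the scanner software, against 49.5% to 71.3% on the other 11 arrays. Mouse Dicer1 had levels of 0.93, 0.91 and 0.61 on the D1709N arrays, 1.17, 0.91 and 0.69 on the G1809R arrays, 0.53, 0.09 and 0.20 on the WT arrays, and 1.36, 1.02 and 1.02 on the GFP arrays. Its probe was lower in WT than in GFP cells by a log2 change of -0.86 ± 0.18 (SE, limma adjusted p = 0.0350). It was higher than in WT cells by 0.54 in D1709N and by 0.65 in G1809R cells (limma adjusted p = 0.188 and 0.119), and both passed with replicate number as a block (0.00960 and 0.00507). It is a mouse probe, and whether it reads the plasmid's transcript was not tested.

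Fewer Hox genes than genes overall were detected throughout, and the Hoxc cluster held most of those that were. The probe was well above background on all 12 arrays for 12 of the 39 Hox genes (30.8%), against 63.8% of all genes with a RefSeq symbol. These were Hoxa7, Hoxa9, Hoxb3, Hoxb9, Hoxb13, Hoxc4, Hoxc5, Hoxc6, Hoxc8, Hoxc9, Hoxc10 and Hoxc13. By cluster they were 7 of 9 Hoxc genes, 3 of 10 Hoxb genes, 2 of 11 Hoxa genes and 0 of 9 Hoxd genes. Another 8 genes (20.5%, against 9.67% of all genes) were not well above background on any array: Hoxa5, Hoxa11, Hoxb1, Hoxb4, Hoxd1, Hoxd8, Hoxd12 and Hoxd13. No Hoxc gene was among these 8, and 4 of them were Hoxd genes.

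**Figure D1:**
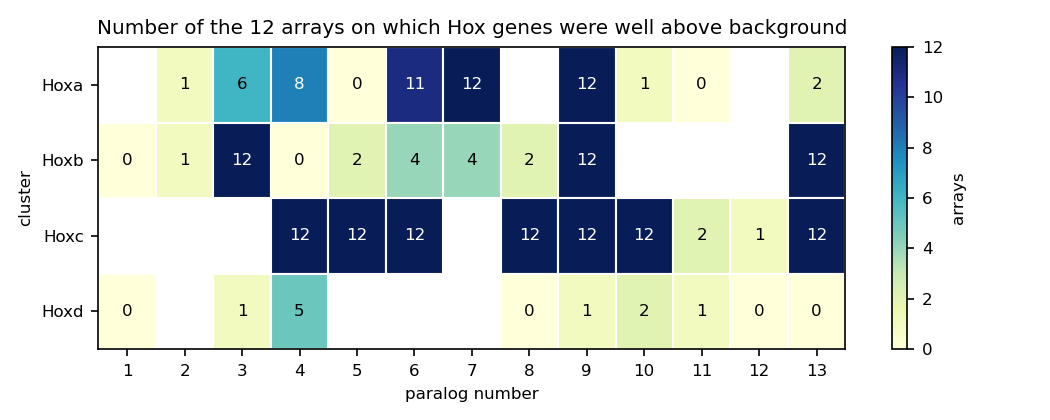
Number of the 12 arrays (colour and digits) on which the probes of Hox genes were well above background, by cluster (rows) and paralog number (columns); blank cells hold no value. Dark cells fill most of the Hoxc row (7 of 9 genes on 12 arrays), while no Hoxd gene exceeds 5 arrays.

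By paralog number, the genes detected on every array were 2 of 12 in groups 1 to 4, 4 of 11 in groups 5 to 8 and 6 of 16 in groups 9 to 13. Group 9 had 3 of its 4 genes on 12 arrays (Hoxa9, Hoxb9 and Hoxc9), with Hoxd9 on 1. Among the Hoxa genes that mark segments of the Müllerian duct, Hoxa9 was well above background on 12 arrays, Hoxa10 on 1, Hoxa11 on 0 and Hoxa13 on 2. Of the 11 genes of groups 9, 10, 11 and 13 listed as used along the duct, Hoxa9, Hoxc9 and Hoxc10 were on 12 arrays. The most tail-ward group 13, used in hindgut, prostate and hair follicle, had Hoxb13 and Hoxc13 on 12 arrays. An antisense RNA of the Hoxa cluster, Hoxa11os, was well above background on 12 arrays, at levels of -4.43 to -2.81, while the separate probe of Hoxa11 was on none.

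The other 19 genes were detected on some arrays. Hoxa6 was well above background on 11 arrays, missing on 1 D1709N array. Hoxa4 was on 8, Hoxa3 on 6, Hoxd4 on 5, and Hoxb6 and Hoxb7 on 4 each. For Hoxb6 and Hoxb7 the 4 arrays were those of replicate 1, which share a slide. Hoxa13, Hoxb5, Hoxb8, Hoxc11 and Hoxd10 were among those on 2 arrays. Hoxb5 on D1709N replicate 3 had a level of -2.96, against -8.26 and -7.05 on the D1709N arrays of replicates 1 and 2.

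The 7 genes detected on 1 array (Hoxa2, Hoxa10, Hoxb2, Hoxc12, Hoxd3, Hoxd9 and Hoxd11) were all on WT replicate 1. They make up 17.9% of the Hox genes, against 5.81% of all genes detected on WT replicate 1 alone. Hoxd3 had levels of -3.73, -7.85 and -7.19 on the WT arrays, and Hoxd11 had -4.14, -7.27 and -7.33. Hoxa13 had -2.92, -6.73 and -7.22, and Hoxb8 had -2.84, -7.56 and -7.41 on the WT arrays. In each of the 4 genes WT replicate 1 was high and the other WT arrays were low. The part that the wider signal of WT replicate 1 has in these levels was not tested.

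Among the dim genes, Hoxa3 and Hoxd4 of the head and neck paralog groups were high on replicate 1 of every group. The pattern was not particular to those paralog groups: Hoxb6 and Hoxb7 had it, while Hoxa2, Hoxb1, Hoxb2, Hoxb4 and Hoxd1 did not. Hoxa3 had -4.47, -6.29 and -6.91 in D1709N cells, -4.38, -6.30 and -6.85 in G1809R cells, -4.41, -6.07 and -7.47 in WT cells, and -4.29, -6.02 and -6.74 in GFP cells. Hoxd4 had -4.29, -6.46 and -6.66 in D1709N cells, -4.49, -6.47 and -7.14 in G1809R cells, -3.58, -6.65 and -6.59 in WT cells, and -4.27, -5.99 and -6.98 in GFP cells. In Hoxa3 and Hoxd4 the groups overlapped, and the 4 arrays of replicate 1 were the 4 highest. Hoxa2, the gene of the second branchial arch, had -8.21, -7.91 and -6.14 in D1709N cells, -8.10, -8.54 and -8.56 in G1809R cells, -4.70, -6.0 and -5.23 in WT cells, and -7.21, -8.60 and -7.67 in GFP cells. Its WT arrays were the 3 highest, but only WT replicate 1 was well above background, so no fold is given. With the filter on dim probes left out, none of the 39 Hox genes was called in any comparison (limma).

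Per array, 18, 13 and 13 Hox genes were well above background in D1709N cells, 19, 15 and 15 in G1809R cells, 31, 14 and 13 in WT cells, and 20, 17 and 13 in GFP cells. WT replicate 1 was the highest of all arrays, and the other 11 arrays ranged from 13 to 20 with the groups overlapping. The means were 14.7 ± 2.89 in D1709N, 16.3 ± 2.31 in G1809R, 19.3 ± 10.1 in WT and 16.7 ± 3.51 in GFP cells (SD, n = 3 arrays each). None of the 6 comparisons of these counts passed an exact permutation test: two-sided p-values ran from 0.5 to 1, all 1 after adjustment, where 0.1 is the smallest that 3 arrays against 3 allow. That test does not use the replicate numbers. By number, D1709N arrays had fewer than G1809R arrays in 3 of 3 pairs. An exact paired permutation test added later gave p = 0.25, the smallest that 3 pairs allow. Over all probes, the D1709N array of each pair also had the lower share well above background. The shares in replicates 1, 2 and 3 were 68.1% against 68.9%, 57.7% against 62.4% and 49.5% against 61.9%. Without WT replicate 1 the number of genes detected on every array stayed at 12.

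**Figure D2:**
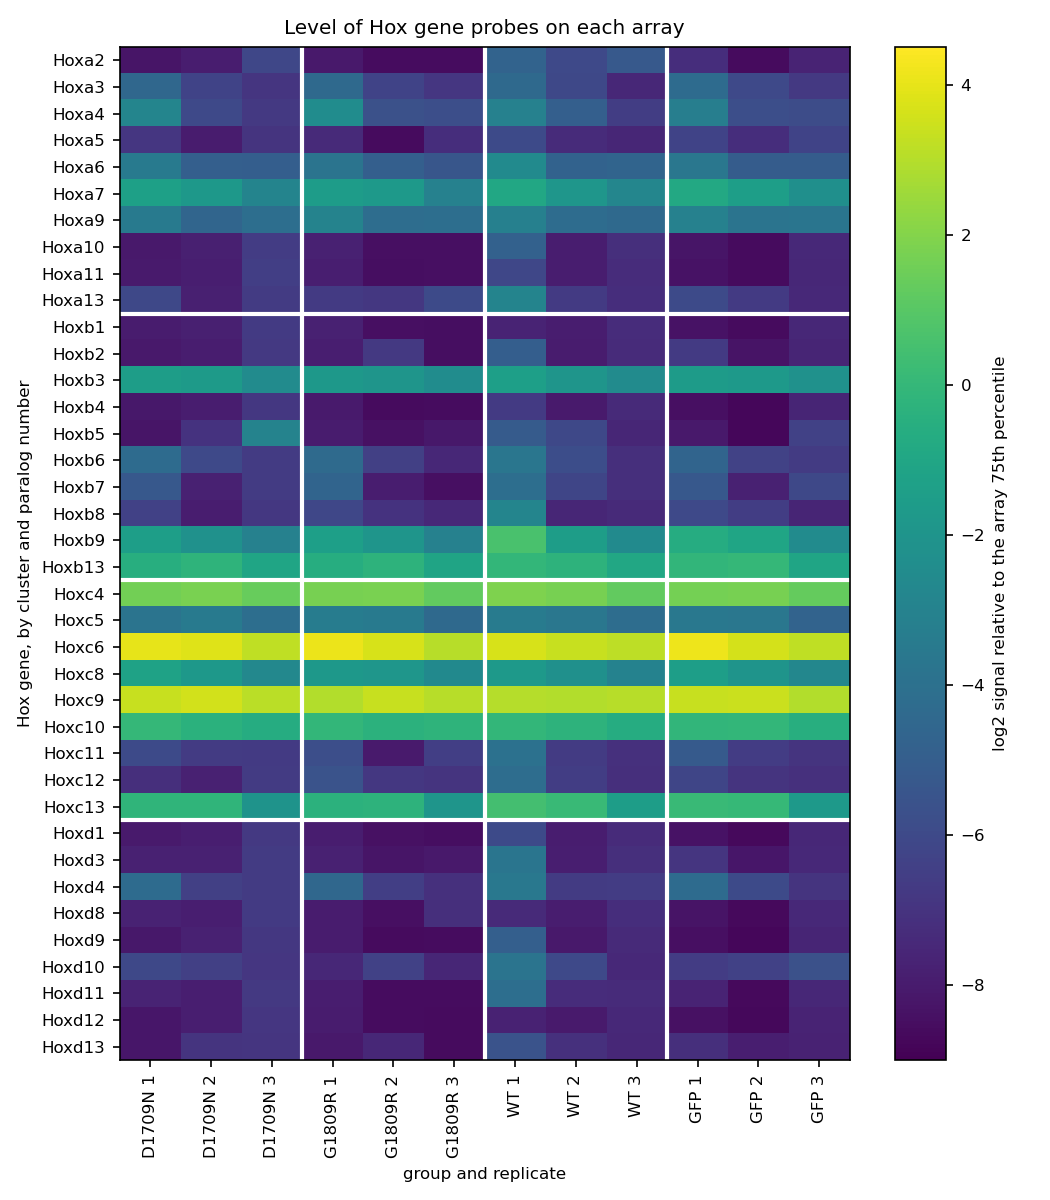
Level of Hox gene probes (rows, by cluster and paralog number) on each array (columns, 3 replicates of D1709N, G1809R, WT and GFP), as log2 processed signal relative to the array's 75th percentile. Rows are to be read across, since levels of different probes cannot be compared; the WT replicate 1 column is lighter than its neighbours in many dim rows, such as Hoxd3 and Hoxd11.

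Testing was limited to the 14 Hox genes with a probe well above background on all 3 arrays of some group: the 12 above, Hoxa6 and Hoxa4. Hoxa4 passed through the G1809R arrays alone, where it was detected on 3 of 3. The other 25 genes were not tested. A member detected on 12 arrays went as low as -4.69, and a member detected on none as high as -5.56.

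No Hox gene was called between constructs in the fit by group alone. In WT against GFP 0 of the 14 passed limma's test at an adjusted p under 0.05, where 2.95% of 24184 genes did. In D1709N against GFP 0 passed (0.0496% of all genes), and in G1809R against GFP 0 passed (0.0124% of all genes). In D1709N against WT 0 passed (1.66% of all genes), in G1809R against WT 0 passed (1.64%), and in D1709N against G1809R 0 passed (0% of all genes). No Hox gene had an unadjusted limma p under 0.05 in any of the 6 comparisons either. The median log2 change of the 14 was -0.07 in D1709N against GFP (0.03 over all genes), -0.12 in G1809R against GFP (0.05 over all genes; 10 of the 14 were lower), -0.05 in WT against GFP (0.04 over all genes), -0.10 in D1709N against WT (-0.01 over all genes) and -0.02 in G1809R against WT (0.01 over all genes). A p that misses the threshold does not show that levels were equal. The 95% interval of the change spanned 5.97 log2 units for Hoxa4, the least precise of the 14.

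Replicate number accounted for much of the spread. The numbers pair the samples: arrays of the same number deviated together from their group means in each of 18 pairs across groups (correlations over all genes of 0.601 to 0.853). In a fit with replicate number as a block, 2 of 14 Hox genes passed in D1709N against WT (15.5% of all genes) and 2 in G1809R against WT (12.7%). None passed with the block in WT against GFP (17.8% of all genes), D1709N against GFP (4.25%), G1809R against GFP (3.74%) or D1709N against G1809R (0%). In the mutant comparisons with WT this share of Hox genes was near that of all genes. The genes were Hoxb9 and Hoxc13 in the first comparison, and Hoxa6 and Hoxc13 in the second, all lower in the mutant cells.

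**Figure D3:**
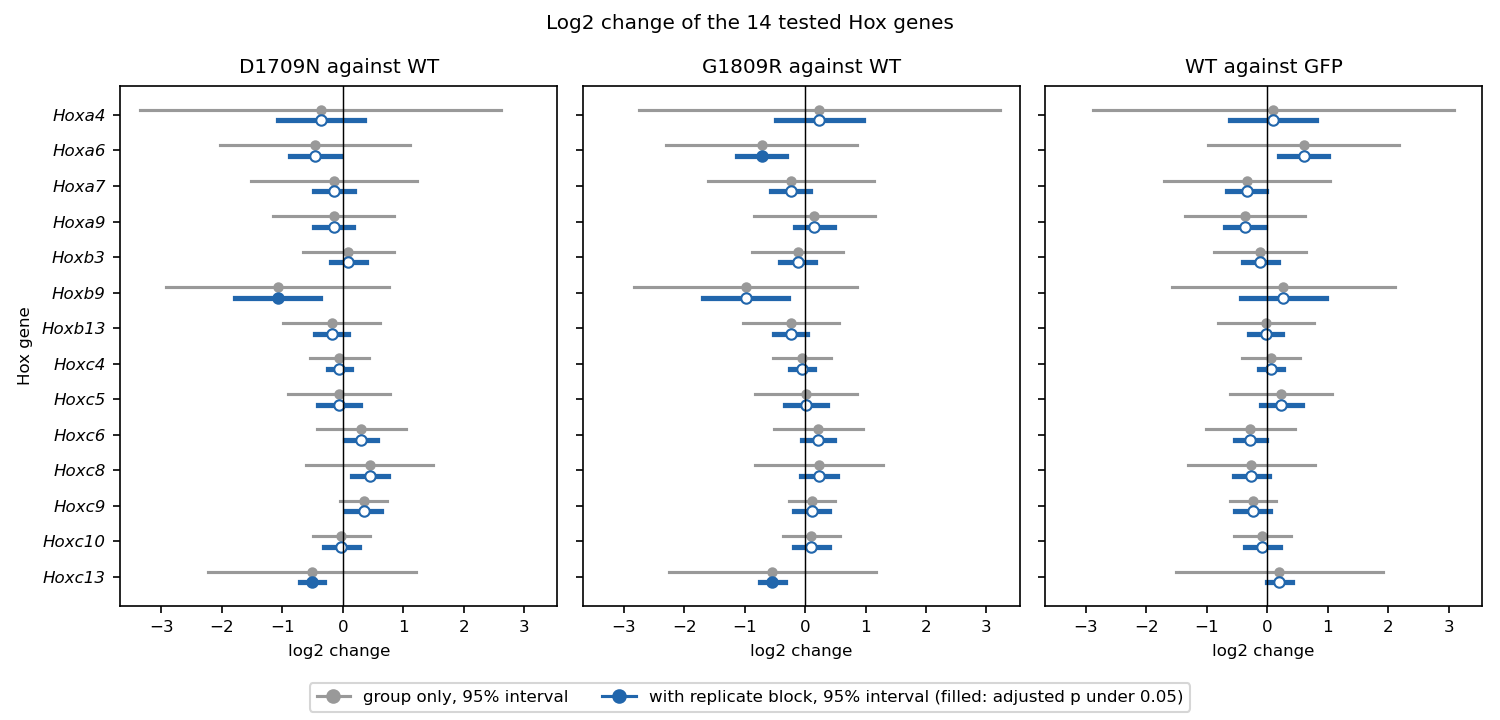
Log2 change of the 14 tested Hox genes (rows) in 3 comparisons, with 95% intervals from the fit by group alone (grey) and with replicate number as a block (blue; filled where the adjusted p was under 0.05). Grey intervals all cross 0; the filled points are Hoxb9 and Hoxc13 in D1709N against WT and Hoxa6 and Hoxc13 in G1809R against WT.

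Hoxc13, a tail-end Hoxc gene known for its part in hair and nail keratins, had the steadiest lower level in mutant than in WT cells. Its levels were -0.19, -0.17 and -2.07 in D1709N cells, -0.32, -0.25 and -1.96 in G1809R cells, 0.45, 0.15 and -1.50 in WT cells, and 0.14, 0.05 and -1.70 in GFP cells. Replicate 3 was low in each group, and the groups overlapped, while within each replicate number the WT array was the highest. D1709N against WT gave -0.64, -0.32 and -0.57 in replicates 1, 2 and 3, a mean log2 change of -0.51 (SE 0.77 by group alone, adjusted p = 0.902; with the block, SE 0.090, adjusted p = 0.00834). G1809R against WT gave -0.76, -0.40 and -0.46, a mean of -0.54 (adjusted p = 0.973 by group alone; with the block 0.00719). With the block both calls held on leaving out each array in turn, with adjusted p up to 0.0431 and 0.0336. They were lost with the block after scaling by each array's median (-0.28 with adjusted p = 0.137 for D1709N, and -0.30 with 0.121 for G1809R). Against GFP, Hoxc13 did not pass with the block. Its change was -0.31 in D1709N (limma adjusted p = 0.0942), -0.34 in G1809R (0.0771) and 0.20 in WT cells (0.170).

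Hoxb9, a group 9 gene of the trunk, had levels of -1.41, -2.17 and -3.09 in D1709N cells, -1.36, -1.95 and -3.08 in G1809R cells, 0.61, -1.50 and -2.55 in WT cells, and -0.66, -1.06 and -2.51 in GFP cells. WT replicate 1 was the highest array and replicate 3 the lowest of each group. D1709N against WT gave -2.02, -0.67 and -0.54 by replicate, a mean log2 change of -1.08 ± 0.83 (SE, limma adjusted p = 0.680; with the block, SE 0.31, adjusted p = 0.0475). Without WT replicate 1 the blocked change was -0.59 (adjusted p = 0.0258). The call held in 3 of 12 blocked fits that each left out 1 array, and with the block it was kept under normexp background (adjusted p = 0.0357) and median scaling (0.0377) but lost under quantile normalization (0.0841) and in the deposited values (0.0754). G1809R against WT had a change of -0.98 that did not pass with the block (adjusted p = 0.0733). Against GFP arrays of the same number, Hoxb9 was at -0.75, -1.11 and -0.58 in D1709N cells and at -0.69, -0.89 and -0.57 in G1809R cells, lower in 3 of 3 pairs each. With all arrays the blocked changes against GFP, -0.81 and -0.72, did not pass (limma adjusted p = 0.171 and 0.229). Without WT replicate 1 Hoxb9 passed with the block in D1709N against GFP (-0.81, limma adjusted p = 0.00838), in G1809R against GFP (-0.72, 0.0142) and in G1809R against WT (-0.50, 0.0488). That fit called 1262, 1082 and 2016 of 24184 genes in these comparisons. No other blocked fit that left out 1 array called Hoxb9 against GFP. Without WT replicate 1 Hoxa7 passed with the block too, at -0.49 in D1709N against GFP (limma adjusted p = 0.0493), -0.58 in G1809R against GFP (0.0314) and -0.51 in WT against GFP (0.0391). With all arrays it did not pass with the block in these comparisons (limma adjusted p = 0.0975, 0.0633 and 0.139). No other blocked fit that left out 1 array called Hoxa7.

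Hoxa6, a trunk gene of the Hoxa cluster, had levels of -3.44, -4.93 and -4.99 in D1709N cells, -3.80, -4.93 and -5.40 in G1809R cells, -2.56, -4.74 and -4.67 in WT cells, and -3.65, -5.07 and -5.05 in GFP cells. WT replicate 1 was again the highest array. G1809R against WT gave -1.24, -0.19 and -0.72 by replicate, a mean log2 change of -0.72 ± 0.71 (SE, limma adjusted p = 0.870; with the block, SE 0.18, adjusted p = 0.0334). Without WT replicate 1 the blocked change was -0.48 and no longer passed (adjusted p = 0.0665). The call held in 4 of 12 blocked fits that left out 1 array. It was lost with the block under normexp background, quantile normalization, median scaling and in the deposited values (adjusted p of 0.0559 to 0.0918).

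Hoxc9, the Hoxc member of group 9, was the single one of the 14 tested Hox genes whose arrays did not overlap between 2 groups. Its levels were 3.37, 3.56 and 3.12 in D1709N cells, 2.96, 3.35 and 3.04 in G1809R cells, 3.02, 2.96 and 3.04 in WT cells, and 3.37, 3.44 and 2.93 in GFP cells. Each D1709N array lay above each WT array, as 17.6% of all genes did in one direction or the other. The log2 change was 0.34 ± 0.17 (SE; 95% interval -0.04 to 0.73), and it did not pass (limma adjusted p = 0.432, with the block 0.107). In the other comparisons 0 of the 14 had arrays that did not overlap, against 19.9% of all genes in WT against GFP, 13.6% in D1709N against GFP, 11.1% in G1809R against GFP, 14.6% in G1809R against WT and 2.46% in D1709N against G1809R.

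**Figure D4:**
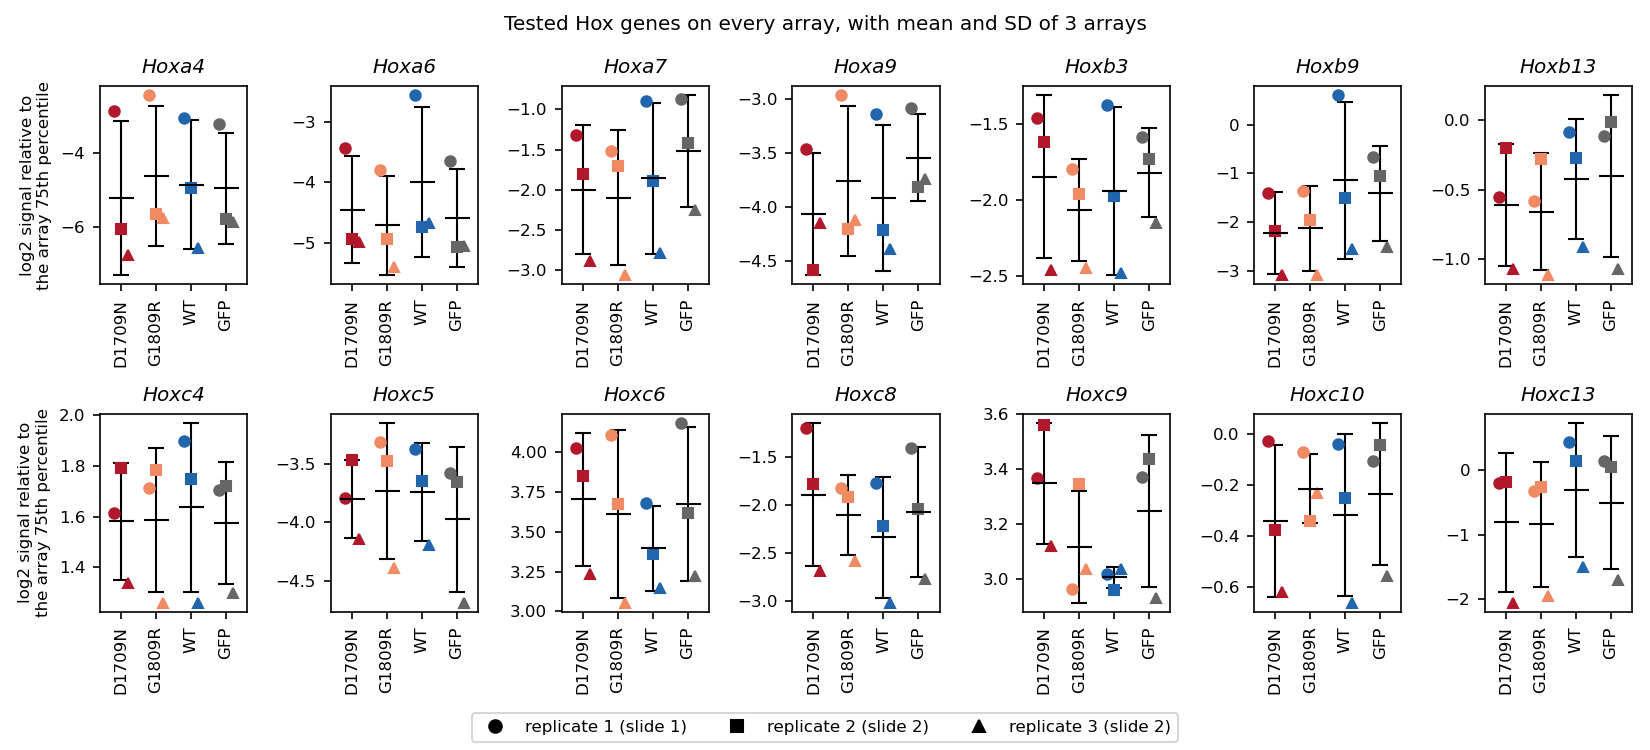
Levels of the 14 tested Hox genes on every array (log2 processed signal relative to the array's 75th percentile; each panel has its own axis), for D1709N, G1809R, WT and GFP cells, with marker shape for replicate number and bars for the mean and SD of 3 arrays. Triangles (replicate 3) are the lowest point of all 4 groups in 10 of the 14 panels, and Hoxc9 is the panel where the D1709N points (3.12 to 3.56) lie above the WT points (2.96 to 3.04).

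None of the other tested Hoxc genes passed at the main scaling with all arrays, with or without the block. With the block, Hoxc8 passed in D1709N against WT under normexp background and without G1809R replicate 1 or 3. Hoxc6 passed in that comparison without WT replicate 3. Under median scaling with the block, Hoxc6, Hoxc8 and Hoxc9 passed in WT against GFP and in D1709N against WT. Hoxc6, a gene of the thorax and forelimb level, had 4.02, 3.85 and 3.23 in D1709N cells, 4.10, 3.67 and 3.05 in G1809R cells, 3.68, 3.36 and 3.15 in WT cells, and 4.18, 3.62 and 3.22 in GFP cells. Its largest change was 0.31 ± 0.33 in D1709N against WT (SE, limma adjusted p = 0.820), with overlapping arrays. Hoxc8, which patterns the lower thorax, had -1.20, -1.78 and -2.69 in D1709N cells, -1.82, -1.92 and -2.59 in G1809R cells, -1.77, -2.22 and -3.02 in WT cells, and -1.41, -2.04 and -2.77 in GFP cells. D1709N exceeded WT in 3 of 3 replicates, by a log2 change of 0.45 ± 0.47 (SE, limma adjusted p = 0.817; with the block 0.0510). Hoxc5 had -3.79, -3.47 and -4.14 in D1709N cells, -3.32, -3.48 and -4.39 in G1809R cells, -3.38, -3.65 and -4.20 in WT cells, and -3.58, -3.65 and -4.69 in GFP cells. The groups overlapped for Hoxc8 and Hoxc5. Hoxc10, used in the lumbar region and hindlimb, had -0.03, -0.38 and -0.62 in D1709N cells, -0.07, -0.34 and -0.23 in G1809R cells, -0.04, -0.25 and -0.66 in WT cells, and -0.11, -0.05 and -0.56 in GFP cells. Its group means lay within 0.13 of each other, and those of Hoxc4 within 0.06.

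In the Hoxa cluster, Hoxa7 had -1.32, -1.80 and -2.89 in D1709N cells, -1.52, -1.71 and -3.07 in G1809R cells, -0.90, -1.90 and -2.79 in WT cells, and -0.87, -1.42 and -2.26 in GFP cells. GFP was the highest group by its mean, and G1809R was below it by a log2 change of -0.58 ± 0.62 (SE, limma adjusted p = 1.00; with the block 0.0633). Hoxa9, the oviduct gene of the duct series, had -3.46, -4.59 and -4.14 in D1709N cells, -2.96, -4.20 and -4.12 in G1809R cells, -3.14, -4.21 and -4.39 in WT cells, and -3.08, -3.81 and -3.74 in GFP cells. D1709N was below GFP by -0.52 ± 0.45 (SE, limma adjusted p = 0.927; with the block 0.0801). Its second probe, well above background on 8 arrays, gave a change of opposite sign for that comparison (0.17). Values for Hoxa4, detected on 4 of the 8 arrays of replicates 2 and 3, ran from -0.60 to 0.33 over the 6 comparisons.

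In the Hoxb cluster, Hoxb3, a gene of the hindbrain and neck, had -1.46, -1.62 and -2.46 in D1709N cells, -1.80, -1.96 and -2.45 in G1809R cells, -1.37, -1.97 and -2.48 in WT cells, and -1.58, -1.73 and -2.15 in GFP cells. Hoxb13, a gene of the tail bud and prostate, had -0.55, -0.20 and -1.07 in D1709N cells, -0.58, -0.28 and -1.12 in G1809R cells, -0.09, -0.27 and -0.92 in WT cells, and -0.12, -0.01 and -1.07 in GFP cells. The groups overlapped for both. The largest changes were -0.25 for Hoxb3 and -0.26 for Hoxb13, both in G1809R against GFP, and none passed (limma adjusted p = 1.00 for both). The second Hoxb3 probe was not well above background on any array.

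Published targets of the 2 miRNA families shown above were mostly below detection. Of 8 Hox genes listed as miR-196 targets, Hoxa7, Hoxa9 and Hoxc8 were tested, while Hoxb8, whose transcript miR-196a is known to cut, was well above background on 2 arrays. None of the 3 passed in any comparison at the main scaling with all arrays, with or without the block. With the block and another processing each was called in some comparison, as in Hoxa7 under median scaling, Hoxa9 under quantile normalization and Hoxc8 under normexp background. The median log2 change of the 3 was -0.34 in WT against GFP, -0.49 in D1709N against GFP and -0.22 in G1809R against GFP. It was -0.14 in D1709N against WT and 0.15 in G1809R against WT. In D1709N against WT, Hoxa7 was at -0.14, Hoxa9 at -0.15 and Hoxc8 at 0.45. Of 6 Hox genes listed as miR-10 targets, Hoxb3 alone was tested, with a change of -0.12 in WT against GFP. Hoxd10 was on 2 arrays.

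The tested Hox genes differed more by replicate number than by construct. The replicate number held a median of 84.6% of the sum of squares over the 12 arrays for the 14 tested Hox genes, against 48.9% for all genes tested. The construct held a median of 8.20%, against 24.8% for all genes. For 13 of the 14 (92.9%) the range of the 3 replicate-number means exceeded that of the 4 group means, as it did for 59.6% of all genes. Replicate 3 was the lowest array of all 4 groups for 10 of the 14 (71.4%), against 13% of all genes. The exception to the first pattern was Hoxc9, where replicate number held 32.5% and construct 37.7%. These are descriptions: the replicate arrays share slides, with replicate 1 on one slide and replicates 2 and 3 on the other, and the cause was not tested. In RNA from whole cultures, fewer cells expressing a gene and less RNA per cell cannot be told apart.

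**Figure D5:**
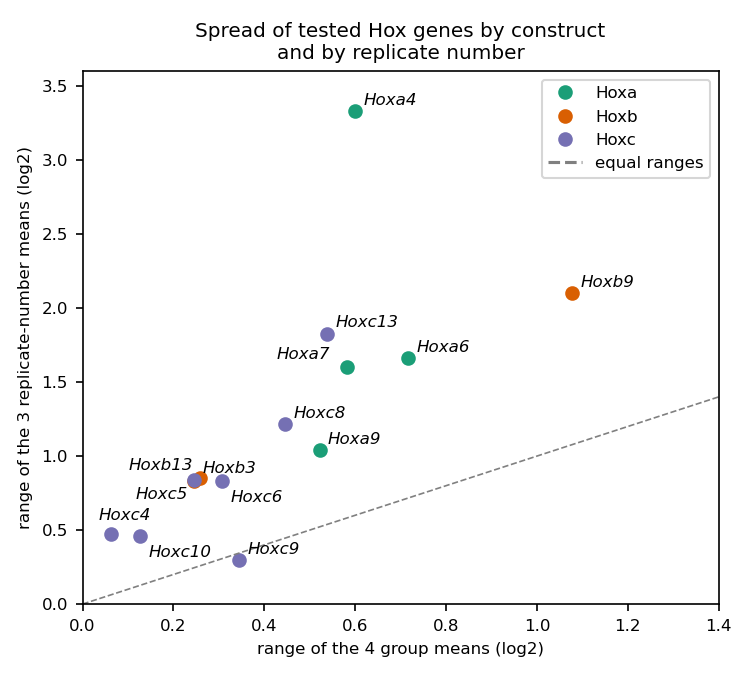
Range of the 3 replicate-number means (vertical) against the range of the 4 group means (horizontal), both in log2 units, for the 14 tested Hox genes, coloured by cluster, with a dashed line of equal ranges. Hoxc9 lies below the line and the other 13 lie above it, with Hoxa4 (3.33) and Hoxb9 (2.10) the highest.

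Several cofactors and regulators of Hox genes differed between constructs. The 11 TALE cofactors tested (Meis, Pbx, Pknox and Tgif genes) were well above background on 12 arrays. Pbx3, a DNA-binding partner of HOX proteins, had 3.24, 3.06 and 3.07 in D1709N cells, 3.43, 3.26 and 3.28 in G1809R cells, 2.73, 2.87 and 2.77 in WT cells, and 3.45, 3.40 and 3.46 in GFP cells. The WT arrays were the lowest, with no overlap. Pbx3 fell in WT against GFP by 0.65 on the log2 scale (SE 0.099, limma adjusted p = 0.0109) and rose in G1809R against WT by 0.54 (adjusted p = 0.0286). With the block 4 of the 11 fell in WT against GFP (Pbx3, Pbx2, Meis2 and Meis1). Beside these blocked counts and those of the lists that follow, the blocked fit called 17.8% of all genes in WT against GFP, 15.5% in D1709N against WT and 12.7% in G1809R against WT. In the blocked fit 4 rose and 3 fell in D1709N against WT, and 4 rose and 1 fell in G1809R against WT.

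Of 28 Polycomb genes tested, Ezh2 and Cbx2 fell in WT against GFP. Ezh2, the enzyme that methylates histone H3 at silent Hox genes, had 3.16, 3.33 and 3.33 in D1709N cells, 3.34, 3.40 and 3.33 in G1809R cells, 2.84, 2.79 and 2.82 in WT cells, and 3.41, 3.39 and 3.46 in GFP cells. The WT arrays did not overlap with any other group. The log2 change was -0.60 in WT against GFP (limma adjusted p = 0.0106), 0.46 in D1709N against WT (0.0390) and 0.54 in G1809R against WT (0.0213). Cbx2, a chromodomain protein of the other Polycomb complex, changed by -0.80 in WT against GFP (adjusted p = 0.00535) and by 0.47 in G1809R against WT (0.0477). With the block 10 of the 28 fell and 0 rose in WT against GFP, 8 rose and 0 fell in D1709N against WT, and 7 rose and 0 fell in G1809R against WT. Their median change was -0.18 in WT against GFP, 0.12 in D1709N against WT and 0.12 in G1809R against WT, where the medians of all genes were 0.04, -0.01 and 0.01.

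Of 10 genes of cluster boundaries and chromosome architecture, Rad21, a cohesin subunit, fell by 0.54 (limma adjusted p = 0.0389) and Ctcf, the insulator protein that separates domains of the Hox clusters, fell by 0.47 (0.0407) in WT against GFP. Gmnn, geminin, which binds HOX proteins and Polycomb, rose by 0.90 in D1709N against WT (adjusted p = 0.0364) and by 0.85 in G1809R against WT (0.0486). With the block 7 of the 10 fell in WT against GFP, 4 rose in D1709N against WT and 5 rose in G1809R against WT. Of 13 trithorax and demethylase genes, Kmt2c fell in WT against GFP by 0.61 (adjusted p = 0.0410), and with the block 6 fell. Of 16 retinoic acid pathway genes, which relay the signal that turns on low-numbered Hox genes, Crabp2 rose in WT against GFP by 1.12 (adjusted p = 0.0193), and with the block 6 rose and 2 fell. None passed among the 3 caudal and flanking homeobox genes or the 14 genes beside the clusters, in any comparison by group alone. With the block Cdx1, a caudal gene that acts upstream of Hox genes, rose by 1.05 in D1709N against GFP (limma adjusted p = 0.00732), by 1.25 in G1809R against GFP (0.00807) and by 1.04 in WT against GFP (0.00143). Of the genes beside the clusters, with the block Ttll6 fell in all 3 of these comparisons and Cbx5 in WT against GFP, while Mtx2 rose in both mutants against WT, and Atp5g3 rose and Calcoco1 fell in D1709N against WT.

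The calls of these lists were not all kept under other scalings or without WT replicate 1. Of the 15 called changes of list genes, markers of mesenchyme included, 15 kept their sign under each scaling. The call was kept by 15 with the slide as a block, 13 under normexp background, 8 under quantile normalization, 9 in the deposited values and 0 under median scaling. Under median scaling, calls over all genes numbered 3 in D1709N against WT, 6 in G1809R against WT and 25 in WT against GFP, in place of 402, 397 and 713, and 13 of the 15 changes were larger in size. Without WT replicate 1, 4 of the 15 were called, all in WT against GFP: Cbx2, Ezh2, Pbx3 and Pdgfra. That fit has fewer WT arrays, and all 15 changes kept their sign. In D1709N against WT, Ezh2 went from 0.46 to 0.47 and Gmnn stayed at 0.90. In WT against GFP, Rad21 went from -0.54 to -0.57 and Ctcf from -0.47 to -0.42. The same count for other arrays left out is not given here. Scaling by the median moved the median change of all genes to -0.24 in WT against GFP, 0.22 in D1709N against WT and 0.25 in G1809R against WT.

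Markers of the labelled source were detected in part. Ovgp1, Krt7, Krt8 and Krt18 of the oviduct epithelium were well above background on 12 arrays, Epcam on 11 and Cdh1 on 10, but Pax8 and the ciliated-cell gene Foxj1 on 4 and Sox17 on 0. Of 13 epithelial markers on the array, 5 were on 12. Of 18 Müllerian genes, 10 were on 12 arrays (Emx2, Wt1 and Amhr2 among them), Lhx1 was on 11, Pax2 on 9, Wnt9b on 4, and 2, Dach1 and Dach2, were on 0. Of 12 mesenchymal genes, 10 were on 12 arrays (Vim and Acta2 among them) and Twist1 was on 1. Of 8 leukocyte markers, Cd3e, Cd14, Itgam and Csf1r were on 12 arrays, Adgre1 on 8, Ptprc on 5 and Lyz2 on 1. Of 7 endothelial markers, Pecam1 and Kdr were on 12 and Cdh5, Tie1 and Emcn on 0. By group alone, none of the 8 epithelial, 4 leukocyte and 3 endothelial markers tested was called in any comparison. Of 11 mesenchymal markers, Pdgfra fell in WT against GFP by 0.91 (limma adjusted p = 0.00740) and Pdgfrb fell in D1709N against WT by 1.11 (0.0342). Pdgfrb was not well above background on D1709N replicate 3, and its call was lost under normexp background (-0.46, limma adjusted p = 0.0875), quantile normalization (-0.68, 0.585), in the deposited values (-0.68, 0.573) and without WT replicate 1 (adjusted p = 0.107). With the block 4 of the 11 mesenchymal genes rose and 5 fell in each mutant against WT, and 2 rose and 3 fell in WT against GFP. Of 12 Müllerian genes tested, 2 rose and 2 fell with the block in D1709N against WT, 2 rose and 3 fell in G1809R against WT, and 2 rose and 1 fell in WT against GFP. Among epithelial markers the block called Krt7 (0.91, limma adjusted p = 0.0210), Krt8 (0.76, 0.00952) and Krt18 (0.63, 0.0132) higher and Cldn4 lower in D1709N against WT, and Krt8 higher in G1809R against WT (0.59, 0.0273). The macrophage gene Csf1r rose with the block by 1.19 in D1709N against WT (limma adjusted p = 0.00790) and also rose in G1809R against WT (0.0116). No other leukocyte marker was called with the block in these comparisons. The median change of the 4 tested was 0.012 in D1709N against WT and -0.012 in G1809R against WT. Cd14 rose with the block in WT against GFP by 0.51 (limma adjusted p = 0.0338). The endothelial receptor gene Kdr fell with the block by 0.58 in each mutant against WT (limma adjusted p = 0.00889 for D1709N and 0.00932 for G1809R). Their part in the Hox levels was not tested.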

How the data were processed

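RNA of 12 samples was hybridized to single-colour Agilent mouse arrays, 100 ng each, labelled with Cy3 per the labels' protocols. Per the file headers, the authors' scanner files hold processed intensities made with Agilent Feature Extraction 11.0.1.1, already background-subtracted, with no scaling between arrays, beside raw median intensities and flags of 0 or 1 for which spots were well above background. The deposited value table holds log2 signals for 31362 probes, 31334 of them matched to scanner probes; its column medians were 9.41 to 9.43, how it was scaled and centred is not stated in the sources used, and it served as an alternative.

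The 3671 control spots were left out. Log2 processed signals were taken relative to each array's 75th percentile over 59305 non-control spots, and spots of a probe were averaged without outlier flags (287 of 55681 probes were lost). Saturation flags were absent from non-control probes. A probe was kept if well above background on all 3 arrays of some group, and the brightest one by its mean represented a gene, giving 24184 genes or transcripts, the Hox genes among them. Tests used limma (version 3.58.1, R version 4.3.3) with lmFit, contrasts.fit and eBayes, 12 arrays in 1 fit by group, two-sided, with Benjamini-Hochberg adjustment over all genes and calls under 0.05. Accessions were named through RefSeq, which named 27235 probes.

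Replicate numbers pair the arrays: the correlation of deviations was 0.601 to 0.853 for the 18 same-number pairs of arrays and -0.675 to 0.197 for the other 36. Blocked values are given beside the Hox genes and list counts they change. Array number limits the precision. Alternatives were the replicate and slide blocks, slide 2 alone, normexp, quantile and median scaling, the deposited values, other filters and probes, 2-group fits and leaving out each array; normexp used the median spot signal in place of the mean. The 12 Hox genes with values on each array were those called with or without the block, then those with the smallest p; values of Hoxa2, Hoxa3, Hoxa13, Hoxb5, Hoxb8, Hoxd3, Hoxd4 and Hoxd11 were added after they were seen. A further member and a marker gene enter the counts but are not reported here by name. The members and lists were chosen with earlier results of these data known. Scripts were tested on simulated data.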

Additional observations from a re-analysis of the deposited data

How the results depend on the processing

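With replicate number left out, no Hox gene was called in any of the 6 comparisons under any alternative: the slide block, slide 2 alone, normexp, quantile and median scaling, the deposited values (13 tested members), no filter (39 members), detection on every array (12 members), the mean of a gene's probes, 2-group fits, or leaving out each array. The replicate block gave 2 calls in D1709N against WT and 2 in G1809R against WT, against 0 without it, and changed no other count. Combined settings were added after seeing the data. The block with normexp gave 3 (Hoxb9, Hoxc8 and Hoxc13) and 1 (Hoxc13) in these comparisons, where it called 3337 and 3119 of 24184 genes. The block with quantile normalization or the deposited values gave 1 each in WT against GFP and D1709N against GFP (Hoxa9), and 1 each in D1709N against WT and G1809R against WT (Hoxc13). In the same order of comparisons, all genes called with quantile normalization numbered 4196, 942, 3124 and 3037. With the deposited values they numbered 4343, 1113, 3253 and 3173. The block with median scaling gave 5 in WT against GFP (Hoxa7, Hoxa9, Hoxc6, Hoxc8 and Hoxc9) and 1 in G1809R against GFP (Hoxa7). It gave 4 in D1709N against WT (Hoxb9, Hoxc6, Hoxc8 and Hoxc9) and 0 in G1809R against WT. In the same order, all genes called with median scaling and the block numbered 5787, 504, 4376 and 4289. Leaving out each array with the block gave 0 to 1 calls in WT against GFP, 0 to 2 in D1709N against GFP and in G1809R against GFP, 1 to 3 in D1709N against WT and 1 to 2 in G1809R against WT. Counts of 2 in both comparisons with GFP came on leaving out WT replicate 1. In these blocked fits, all genes called numbered 2328 to 4035 in WT against GFP, 127 to 1262 in D1709N against GFP and 18 to 1082 in G1809R against GFP. They numbered 1576 to 3376 in D1709N against WT and 1573 to 2773 in G1809R against WT. Without the block, many signs turned on leaving out an array. Of 84 changes of tested Hox genes, 17 turned without D1709N replicate 3, the most, and 4 without WT replicate 2, the fewest. Examples were Hoxc13 in G1809R against WT (-1.14 to 0.020, with the block -0.61 to -0.46) and Hoxc5 in G1809R against GFP (-0.11 to 0.58). Another was Hoxc10 in D1709N against G1809R (-0.29 to 0.012, with the block -0.23 to 0.021). None of them was called there without the block, while with it Hoxc13 was called in G1809R against WT in 12 of 12 fits. The cause was not tested. Hox genes detected on every array numbered 12 to 13 over the alternatives. Signal over background limits the 25 untested members, whose changes were not measurable here.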
